A study of Mus musculus with 12 samples.

Results

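The 6 transmembrane mucin genes Muc1, Muc3, Muc3a, Muc4, Muc13 and Muc20 were followed through murine crypts and crypt-derived monolayers of the small intestine (SI) and large intestine (LI). They were picked by symbol, each through its Ensembl identifier, and make up 6 of the 55487 genes in the deposited count tables. RNA was sequenced from C57BL/6 mice in 4 groups of 3 libraries. SI tissue and LI tissue were freshly isolated crypts. SI monolayers and LI monolayers were crypts plated on Matrigel and cultured for 24 h without a drug of the study's screen. Their seeding medium, as the methods describe it, held Wnt3a, EGF, R-spondin and the compounds CHIR99021, LDN193189 and Y27632. After 4 h it was replaced by control media with Wnt3a, EGF, Noggin and R-spondin. The labels name no genetic change, and by the study's methods its mice, of both sexes, were 6 to 10 weeks old. By the study's methods, SI crypts were taken from jejunum and released with EDTA. LI crypts were first digested with collagenase and dispase, with Y27632 present, so that region and isolation procedure cannot be told apart. The 3 tissue libraries of a region came from 3 mice and monolayer libraries from pooled wells. The methods take the LI for culture from the mice that gave the SI, so that SI and LI samples may share animals, and no source ties a library to an animal. The p-values therefore measure the spread between these samples, part of which may be technical.

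Transmembrane mucins are membrane-anchored glycoproteins whose long extracellular domains, rich in serine and threonine, are covered with O-linked sugars. In the intestine they sit on the apical surface of the epithelium and form the glycocalyx over the microvilli, beneath the mucus gel that goblet cells build from the secreted mucin Muc2. Many of them are cleaved in a SEA domain during synthesis, and their short cytoplasmic tails bind signalling and scaffold proteins. Muc3 and Muc3a, a pair of related genes, and Muc13 are typical of the enterocyte brush border. Muc1 and Muc4 are widespread epithelial mucins, of which Muc1 binds beta-catenin through its tail and Muc4 can engage the receptor Erbb2. Muc20 is a small family member known as a partner of the receptor Met.

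The members lie at 3 places in the genome (GRCm38). Muc1 (ENSMUSG00000042784.9) is at chr3:89229057-89233381 on the plus strand. Muc3 (ENSMUSG00000037390.12, chr5:137134922-137149322) and Muc3a (ENSMUSG00000094840.5, chr5:137208813-137212389) lie on the minus strand of chromosome 5, with 59490 bases between them. Muc4 (ENSMUSG00000079620.13, chr16:32735886-32782391, plus strand), Muc20 (ENSMUSG00000035638.14, chr16:32777419-32797435, minus strand) and Muc13 (ENSMUSG00000022824.12, chr16:33794037-33819934, plus strand) lie on chromosome 16. Muc4 and Muc20 run towards each other and overlap at their 3' ends, where 627 exonic bases, 15.6% of the exon length of Muc20 and 5.33% of that of Muc4, belong to both genes. No source states whether reads were counted by strand, so reads of Muc4 and Muc20 in that overlap cannot be told apart. Exons of Muc13 share 184 bases, 6.06% of their length, with the antisense gene Gm15657. RefSeq draws the Muc3 gene from 137134924 to 137166048, a span that takes in most of the separately counted lincRNA Gm3054 (chr5:137154029-137166070).

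**Figure D1:**
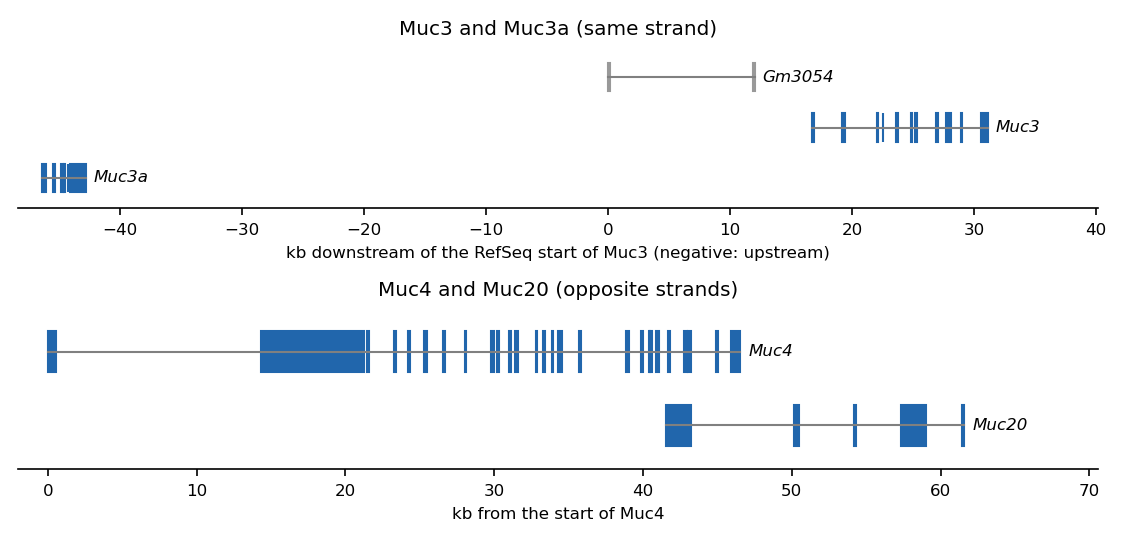
Exons (boxes) and introns (lines) of the neighbouring transmembrane mucin genes in kb along each locus, above for Muc3 and Muc3a with the lincRNA Gm3054 (grey) and below for Muc4 and Muc20. Muc3 and Muc3a are 59490 bases apart on the same strand, and the last exon of Muc20 overlaps exons of Muc4 on the opposite strand.

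Because Muc3 and Muc3a are paralogs, it was checked whether reads could be divided between them. Their annotated transcripts shared no word of 20 bases, and in the best local alignment of 1 transcript of each, 119 of 205 aligned bases were identical. The first 120 bases of that alignment, all coding and without a gap, are given to show how far the paralogs differ (Muc3, chr5:137138320-137140780, and Muc3a, chr5:137210828-137211461, both on the minus strand, introns left out). Capitals mark the 70 bases that are identical.
Muc3: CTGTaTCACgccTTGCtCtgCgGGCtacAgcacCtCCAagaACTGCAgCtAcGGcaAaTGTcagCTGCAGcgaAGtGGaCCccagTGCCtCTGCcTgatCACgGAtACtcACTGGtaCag
Muc3a: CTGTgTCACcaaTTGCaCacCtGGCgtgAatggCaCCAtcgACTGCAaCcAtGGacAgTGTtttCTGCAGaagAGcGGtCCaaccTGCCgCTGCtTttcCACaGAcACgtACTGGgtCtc
The differences are spread along the whole stretch. In the annotation Muc3a carries a tag for an error in the reference genome at its locus, which was not examined further.

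RefSeq promoter sequences (GRCm38.p6) were found for 5 of the 6 members, all but Muc3a. The 250 bases before the start site are shown for Muc13, the member with the highest level, for Muc3, whose decrease in culture differed between regions, and for Muc1, which differed most between SI and LI. Capitals mark the letters of 6 motifs, each searched on both strands. For the intestinal CDX factors the letters were TTTAT. For the KLF and SP factors they were GGGCGG. The AP-1 letters were TGANTCA. The remaining motifs stand for HNF1, searched as GTTAAT, for the GATA factors, searched as AGATAA, and for the E-box, searched as CACGTG. The windows are chr16:33793787-33794036 (plus strand) for Muc13, chr5:137166047-137166296 (minus strand) for Muc3 and chr3:89228806-89229055 (plus strand) for Muc1.
Muc13: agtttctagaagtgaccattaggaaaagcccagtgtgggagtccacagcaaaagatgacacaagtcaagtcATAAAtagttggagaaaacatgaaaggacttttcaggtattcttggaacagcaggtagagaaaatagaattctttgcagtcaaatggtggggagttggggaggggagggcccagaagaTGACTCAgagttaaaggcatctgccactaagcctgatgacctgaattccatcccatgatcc
Muc3: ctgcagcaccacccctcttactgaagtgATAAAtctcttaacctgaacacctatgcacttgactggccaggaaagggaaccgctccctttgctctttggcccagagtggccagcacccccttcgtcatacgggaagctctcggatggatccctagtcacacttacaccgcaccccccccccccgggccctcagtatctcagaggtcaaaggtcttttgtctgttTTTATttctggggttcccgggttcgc
Muc1: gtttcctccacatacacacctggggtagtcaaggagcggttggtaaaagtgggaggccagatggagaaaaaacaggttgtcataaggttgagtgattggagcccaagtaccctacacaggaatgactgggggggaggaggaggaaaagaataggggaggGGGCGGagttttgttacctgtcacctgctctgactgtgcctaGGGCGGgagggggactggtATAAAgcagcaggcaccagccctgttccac
Muc13 held the CDX letters 179 bases and the AP-1 letters 61 bases before its start. Muc3 held the CDX letters at 26 and 222 bases before the start. In Muc1 the CDX letters lay at 30 bases, where the complementary ATAAA also forms the end of a TATA box, and the KLF/SP letters at 49 and 91 bases. Across the 32851 promoters of the table, 37.3% held the CDX letters, 32.7% the KLF/SP letters and 6.75% the AP-1 letters. GATA and E-box letters, present in 9.99% and 6.02% of all promoters, were not in the windows of the 5 members, and HNF1 letters (6.43% of all promoters) occurred only in a second Muc13 window, which is not printed because it lies inside a transcript. Such matches describe letters and do not locate a bound site.

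The 12 libraries held between 59016196 and 76216530 counts, and the limit set by 3 counts lay between 0.0394 and 0.0508 counts scaled to library size (CPM), for counting error only. Low counts, those of 1 to 20, were even in 73.4% to 77.4% of cases, and no source states whether both mates of a pair were counted. All 12 enterocyte and all 8 Paneth cell markers examined were called higher in SI tissue than in LI tissue, beside 11.6% of tested genes, and fitted the labelled regions. Of 8 colonocyte markers, 4 were called lower in SI tissue, beside 11.1% of tested genes, and 4 were not called. Mitochondrial genes took 4.56% to 9.16% of counts in SI tissue, 2.25% to 2.59% in LI tissue and 0.472% to 0.750% in monolayers. The SI tissue libraries also varied in their cell type markers, with a summed level of Paneth cell markers from 4663 to 24436 CPM. Levels below are normalized counts, the authors' counts divided by 1 size factor per library, and are given in the order of replicates 1, 2 and 3. A gene is called when its adjusted p in edgeR's quasi-likelihood test is below 0.05 and its log2 fold change is at least 1 in size.

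Muc13 dominated the transmembrane mucins in all 4 groups. Per kb of exon, the scale on which genes can be set side by side, it made up 72.8% ± 5.47 (SD, n = 3) of the summed level of the 6 genes in SI tissue, 71.4% ± 1.67 in LI tissue, 82.3% ± 2.62 in LI monolayers and 94.9% ± 0.564 in SI monolayers. Muc3 came second in every group, with 23.6% ± 5.34 in SI tissue and 26.0% ± 1.59 in LI tissue, but 16.3% ± 2.58 in LI monolayers and 4.47% ± 0.559 in SI monolayers. The other members each contributed 3.05% or less. The exon length used for Muc3, 1943 bases, is that of an annotation whose span is shorter than that of RefSeq, so that its level per kb depends on the gene model. The summed level was highest in LI tissue, with 82158 ± 3270 normalized counts per kb of exon, followed by SI tissue (47390 ± 3581), LI monolayers (29718 ± 1667) and SI monolayers (23049 ± 404). The share of Muc3 was thus lower in monolayers than in tissue in both regions, and lowest in SI monolayers.

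**Figure D2:**
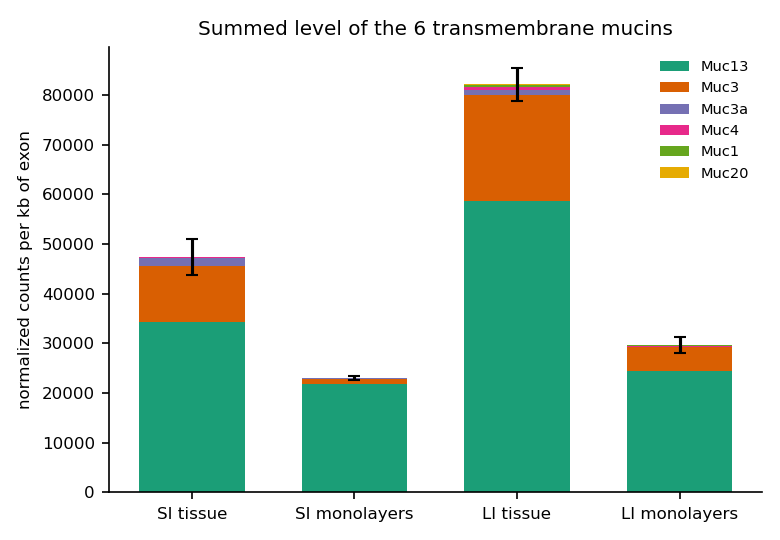
Summed level of the 6 transmembrane mucins in normalized counts per kb of exon (bars, mean of 3 libraries, stacked by gene; error bars, SD of the sum). Muc13 is the largest part of every bar and Muc3 the second, and the Muc3 part shrinks to 4.47% of the sum in SI monolayers.

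Muc13, a brush border mucin with EGF-like domains, varied little between replicates. Its normalized counts were 99861, 109445 and 104215 in SI tissue and 66942, 64739 and 67636 in SI monolayers. In LI tissue they were 187701, 166235 and 180910, and in LI monolayers 76255, 73918 and 72467. The libraries of each group lay apart from those of every other group. LI tissue ranked first and SI tissue second, followed by LI and SI monolayers, which differed by 0.13 ± 0.05 (SE) on the log2 scale (adjusted p = 0.0551, LI over SI). That difference stayed under the fold threshold in every alternative fit, with adjusted p-values from 0.00108 in a fit of the 2 groups alone to 0.335 with 1 library left out.

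Muc3, which codes for a large mucin of the brush border glycocalyx, fell into 4 separate levels. SI tissue libraries had 26452, 24299.8 and 15026 normalized counts, and SI monolayers 2063, 2181 and 1752. LI tissue libraries had 39704, 41450.3 and 43090.4, and LI monolayers 11818, 8021 and 8585. No libraries of different groups overlapped, and replicate 3 of SI tissue was the lowest of its group. Each step of the order LI tissue, SI tissue, LI monolayers, SI monolayers had an adjusted p of 0.00769 or less.

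Muc3a, the paralog of Muc3, had a different order. Its normalized counts were 2681, 3194 and 2337 in SI tissue and 1969, 2307 and 1363 in LI tissue. Monolayers were far lower, with 133, 128 and 138 in SI and 189.6, 164 and 98.8 in LI. SI tissue was the highest group for this gene alone among the 6, and the lowest SI tissue library lay just above the highest LI tissue library. The monolayers of both regions overlapped (adjusted p = 0.688).

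Muc4, a long mucin that can engage Erbb2, was intermediate. In SI it had 2704, 3474 and 2380 normalized counts in tissue and 850, 912 and 864 in monolayers. The LI values were 6651, 8190 and 4955 in tissue and 2172, 1505 and 1778 in monolayers. The 4 groups did not overlap and kept the order of Muc3, and the narrowest step, SI tissue over LI monolayers, was 0.64 ± 0.21 on the log2 scale (adjusted p = 0.0197).

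Muc1 was far higher in the LI than in the SI. Its LI tissue libraries had 1600.35, 1032 and 1514 normalized counts and its LI monolayers 391, 432 and 403. In SI tissue it had 35.3, 10.4 and 11.7 and in SI monolayers 9.60, 14.2 and 14.6, which correspond to 10 to 30 raw counts per library. The lowest LI library stood far above the highest SI library, and the SI groups overlapped. Replicate 1 of SI tissue held the highest of the 6 SI values.

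Muc20 was the least expressed member. LI tissue had 45.1, 62.2 and 49.1 normalized counts and LI monolayers 19.3, 25.3 and 15.8. SI tissue had 7.06, 15.6 and 25.4, and SI monolayers 2.88, 3.56 and 4.56, the last from 3 to 5 raw counts per library. It passed the filter on low counts through its LI libraries, since 2 of 3 SI tissue libraries and 0 of 3 SI monolayer libraries exceeded the filter's limit of 0.144 CPM. SI tissue and LI monolayers overlapped (log2 difference 0.31 ± 0.46, adjusted p = 0.575), and LI tissue was above and SI monolayers below both.

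**Figure D3:**
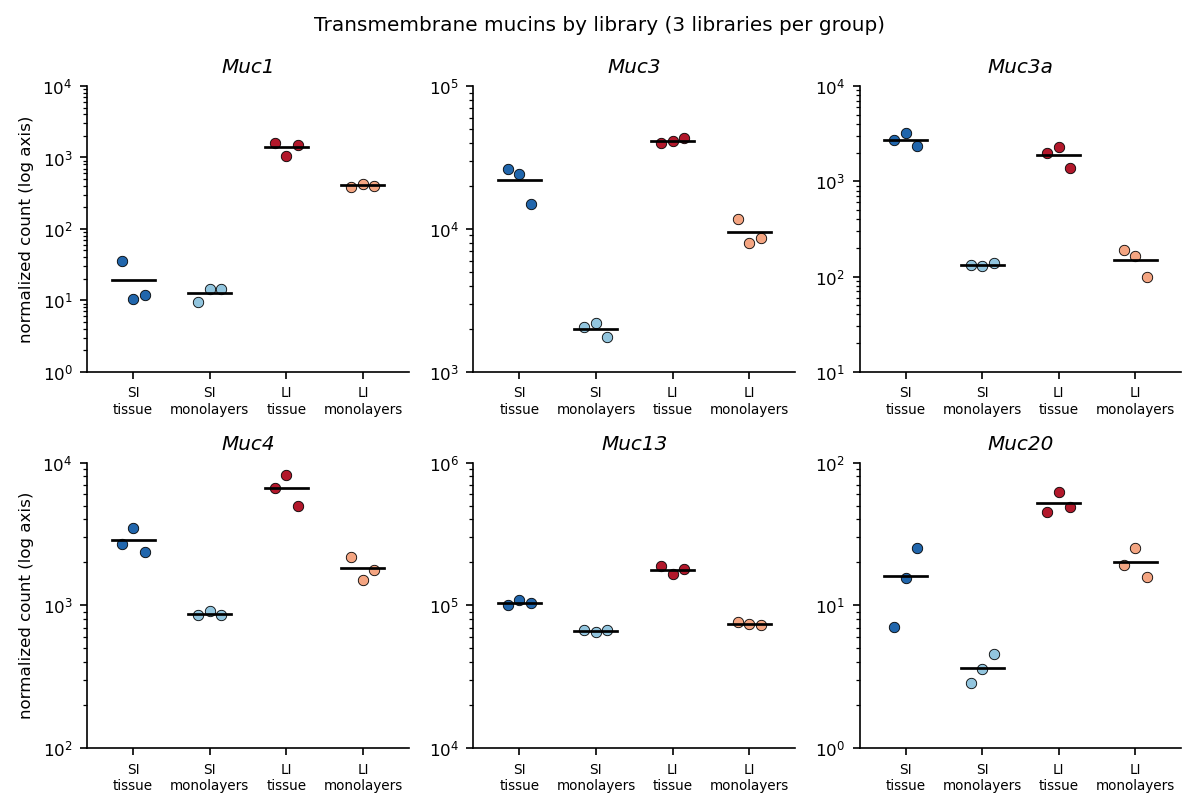
Normalized counts of each transmembrane mucin in the 12 libraries (points) with the group mean (line), on log axes whose ranges differ between genes. Muc1 separates LI from SI libraries, Muc3a separates tissue from monolayers, and Muc3 and Muc4 form 4 steps.

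The first comparison asked how transmembrane mucins differed between cultured SI epithelium and freshly isolated SI crypts. In SI monolayers 4 members fell and none rose. Muc20, counted among the 4, passed the filter through its LI libraries, and in a fit of the SI groups alone 3 members were called. Of all 19581 genes tested, 16.4% were called lower and 9.71% higher in SI monolayers. The brush border paralogs fell furthest. Muc3a had a log2 fold change of -4.33 ± 0.26 (SE), a 20.1-fold decrease (adjusted p = 1.20e-07), and Muc3 of -3.42 ± 0.24, a 10.7-fold decrease (adjusted p = 1.46e-06). In the bulk RNA of these samples, fewer cells of a type and less RNA per cell cannot be told apart.

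Muc4 fell 3.18-fold in SI monolayers (log2 fold change -1.67 ± 0.21, adjusted p = 8.72e-05). For Muc20 the change was -2.07 ± 0.54 (adjusted p = 0.00366), from low counts. Its SI monolayer libraries held 3 to 5 raw counts each, all under the filter's limit. Muc13 had a log2 fold change of -0.62 ± 0.05, a small and precise difference (adjusted p = 6.14e-08) under the fold threshold. Muc1 had -0.49 ± 0.45 (adjusted p = 0.376), and without replicate 1 of SI tissue its estimate was 0.25. The groups did not overlap for 5 of the 6 members, all but Muc1, beside 66.4% of all tested genes. The median log2 fold change of the 6 was -1.87, and that of all tested genes -0.05.

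The same question for the LI gave a decrease of every member. All 6 fell in LI monolayers. Among all tested genes, 23.5% were called lower and 14.5% higher. The groups did not overlap for 6 of the 6, nor for 73.0% of tested genes. Muc3a again fell furthest, with a log2 fold change of -3.59 ± 0.25 (adjusted p = 2.99e-07). Muc3 fell 4.23-fold (log2 fold change -2.08 ± 0.23, adjusted p = 2.51e-05). The remaining members fell between 2.33-fold and 3.51-fold.

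Among those, Muc4 changed by -1.81 ± 0.21 (adjusted p = 3.10e-05) and Muc1 by -1.71 ± 0.22 (adjusted p = 1.12e-05). Muc13, the most abundant member, changed by -1.22 ± 0.06 (adjusted p = 9.13e-12). Muc20 changed by -1.33 ± 0.43 (adjusted p = 0.0125), a call that was lost without replicate 2 of LI tissue (-1.18, adjusted p = 0.0509). The median over the 6 was -1.76, beside -0.05 for all tested genes. Mitochondrial shares were lower in monolayers than in tissue in both regions. With the mitochondrial genes left out of the counts, 4 members were still called in SI and 6 in LI.

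**Figure D4:**
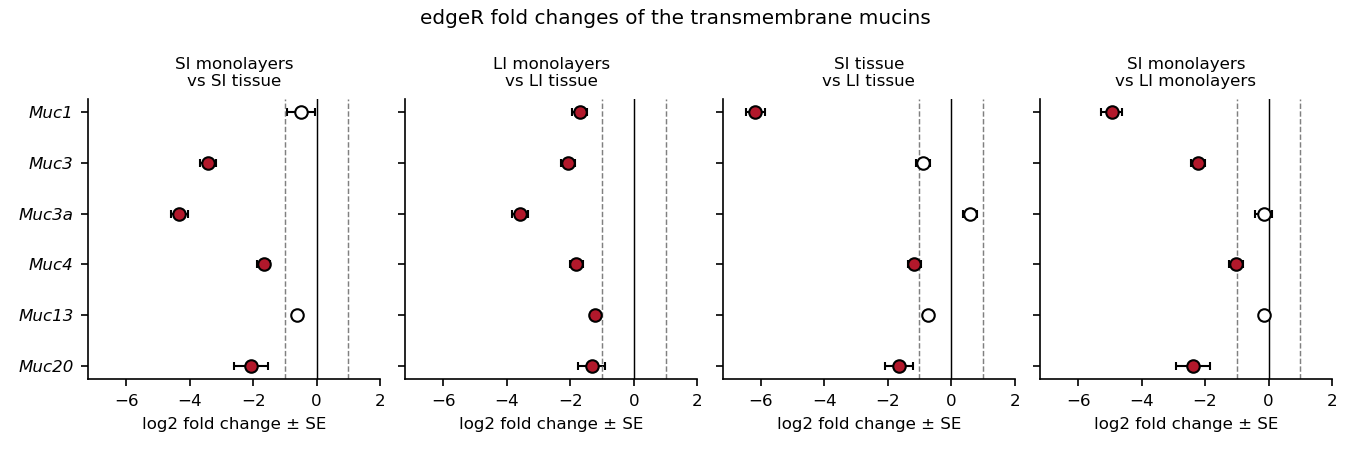
Log2 fold changes (points) with SE (bars) from edgeR for the 6 transmembrane mucins in 4 comparisons; filled points are called and dashed lines mark the fold threshold. In LI monolayers every member lies left of the threshold, and Muc1 has the largest differences between SI and LI.

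Tissue of the 2 regions was compared next, to see how transmembrane mucins differ along the gut. SI tissue had lower levels than LI tissue for 3 called members, Muc1, Muc4 and Muc20, and a higher level for no called member, while 11.1% of tested genes were called lower and 11.6% higher. Muc1 had the largest difference of the 6, 72.0-fold (log2 -6.17 ± 0.31, adjusted p = 1.33e-09), which came to -6.90 without replicate 1 of SI tissue. Muc4 was 2.25-fold lower in SI tissue (log2 -1.17 ± 0.21, adjusted p = 0.00089), which came to -0.98 without replicate 2 of LI tissue and was then not called. Muc20 differed by -1.64 ± 0.44 (adjusted p = 0.00504). It passed the filter through LI libraries, where it is high.

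The brush border members differed by less than the fold threshold between the tissues. Muc13 had a log2 difference of -0.73 ± 0.05 (adjusted p = 1.20e-08), and Muc3 of -0.88 ± 0.22 (adjusted p = 0.00769). Without replicate 1 of SI tissue the Muc3 difference was -1.03 and was called. Muc3a pointed the other way, with 0.58 ± 0.21 (adjusted p = 0.0415). That adjusted p depended on the processing, with 0.0115 in DESeq2, 0.0686 with upper quartile scaling and 0.140 without a filter on low counts. With 1 library left out the Muc3a difference was 0.40 to 0.76, with adjusted p-values from 0.0149 to 0.134. The tissue libraries of the 2 regions did not overlap for any of the 6 members, nor for 58.6% of all tested genes. The median difference of the members was -1.02 and that of all tested genes 0.06.

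Between monolayers, the question was whether the regional differences of the tissue were also present after 24 h of culture. SI monolayers had lower levels than LI monolayers for 4 called members, beside 8.88% of tested genes called lower and 12.4% higher. Muc1 was 30.8-fold lower (log2 -4.95 ± 0.32, adjusted p = 1.95e-08) and Muc3 4.65-fold lower (log2 -2.22 ± 0.23, adjusted p = 3.23e-05). Muc20, counted among the 4, differed by -2.38 ± 0.54 (adjusted p = 0.00139), but it passed the filter only through libraries outside the SI monolayers, which held 3 to 5 raw counts each.

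Muc4 lay at the threshold between monolayers, with -1.03 ± 0.21 (adjusted p = 0.00257). It was no longer called without replicate 1 (-0.97) or 3 (-0.99) of SI monolayers or replicate 1 of LI monolayers (-0.85). Muc13 differed by -0.13 ± 0.05 (adjusted p = 0.0551) and Muc3a by -0.15 ± 0.28 (adjusted p = 0.688). The groups did not overlap for 5 members, all but Muc3a, beside 62.4% of tested genes. The median of the 6 differences was -1.62, and that of all tested genes 0.02.

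The interaction of region and preparation tested whether a member differed between monolayers and tissue by another amount in SI than in LI. The 1 called member was Muc3, where 8.51% of tested genes were called lower and 11.4% higher. The decrease of Muc3 in SI exceeded that in LI by 1.34 ± 0.31 on the log2 scale (interaction -1.34, adjusted p = 0.00663), a 10.7-fold against a 4.23-fold decrease. In the other direction, the interaction of Muc13 was 0.60 ± 0.08 (adjusted p = 1.03e-05), which is under the fold threshold and reflects a decrease in LI larger by that amount. For Muc1 it was 1.22 ± 0.51 (adjusted p = 0.0682), and it became called without replicate 1 of SI tissue (1.96) or replicate 2 of LI tissue (1.40). No difference between regions was called for Muc3a (-0.73 ± 0.35, adjusted p = 0.115), Muc20 (-0.74 ± 0.68, adjusted p = 0.406) or Muc4 (0.14 ± 0.29, adjusted p = 0.735). The median over the 6 members was -0.30, beside 0.00 for all tested genes. Gm3054, the lincRNA row inside the RefSeq span of Muc3, had log2 fold changes of -3.12 ± 0.42 in SI monolayers and -1.32 ± 0.36 in LI monolayers, both called. With its counts added to those of Muc3, the Muc3 interaction was -1.35 (adjusted p = 0.00691). Cell type markers went in both directions in this test. Called lower, with 0 higher, were 6 of 12 enterocyte markers (median -2.62), 6 of 10 enteroendocrine and 3 of 5 endothelial markers. Called higher, with 0 lower, were 4 of 8 colonocyte and 8 of 12 goblet cell markers. Stem cell markers were called higher for 6 of 10 and lower for 1. The part of these markers in the interaction of Muc3 was not tested.

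The cell type markers of the same libraries moved in both comparisons of monolayers with tissue, and their part in the values of the mucins was not tested. Counts of called markers are to be read beside the shares of all tested genes. These were 16.4% called lower and 9.71% higher in SI monolayers, and 23.5% and 14.5% in LI monolayers. In SI monolayers 9 of 12 enterocyte markers were called lower and the summed level of the list was 5270 to 5562 CPM, compared with 16198 to 23583 CPM in SI tissue. Of the same 12 markers, 3 were called lower and 1 higher in LI monolayers (median log2 fold change 0.55). In LI monolayers all 8 colonocyte markers were called lower, with sums of 911 to 926 CPM against 4466 to 7071 CPM in LI tissue. Goblet cell markers were called lower for 5 of 12 and higher for 1 in SI monolayers, and lower for 11 of 12 in LI monolayers. Immune markers, a list that includes the antigen presentation genes Cd74 and H2-Aa, were called lower for 10 of 12 in each region and higher for Cd68. Their sums were 645 to 1810 CPM in SI tissue, 130 to 134 CPM in SI monolayers, 1757 to 2356 CPM in LI tissue and 12.9 to 15.7 CPM in LI monolayers. Mesenchymal markers, which could mark stroma in a crypt preparation, summed to 98.6 CPM or less in every library, with 3 of 12 called lower in SI monolayers, and 3 higher and 5 lower in LI monolayers. All 8 tuft cell markers were called lower in both regions (medians -4.03 in SI and -3.13 in LI). Stem cell markers were called lower for 2 of 10 in SI and 8 of 10 in LI monolayers, and Paneth cell markers for 1 of 8 in each. For stem cell markers in SI and Paneth cell markers in both regions, these counts were near or below the shares of all tested genes. Enteroendocrine markers were called higher for 2 of 10 and lower for 1 in SI, and higher for 6 of 10 in LI monolayers. Squamous markers were called higher for all 5 tested in SI and for 2 in LI monolayers, at sums of 22.5 CPM or less. Of 5 tested endothelial markers, 1 was called higher and 3 lower in SI, and 3 higher in LI monolayers, at sums of 4.46 CPM or less. Every marker was detected in every group, except for 2 of 6 endothelial markers with no count in SI monolayers.

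Genes that act with transmembrane mucins were examined in lists, of which the first holds the secreted mucins and their partners in mucus. Of 7 tested genes, 3 were called lower in SI monolayers (median log2 fold change -0.73) and all 7 in LI monolayers (median -3.74). Of all tested genes, 16.4% were called lower in SI and 23.5% in LI monolayers, with a median of -0.05 in each comparison. Muc2, the gel-forming mucin of goblet cells, fell by 2.04 ± 0.18 on the log2 scale in SI monolayers and by 2.80 ± 0.18 in LI monolayers. Muc6, a gel-forming mucin of gastric and duodenal glands, fell from 21.7 ± 10.3 to 1.82 ± 3.16 normalized counts in SI. Its LI levels were 17.7 ± 1.45 in tissue and 2.43 ± 2.12 in monolayers. Muc6 is among the genes called in both regions, but it passed the filter on low counts through its tissue libraries, where it is high. Fcgbp, a protein crosslinked into the mucus gel, fell by 4.37 ± 0.12 and Agr2, a chaperone for mucin folding, by 4.16 ± 0.16 in LI monolayers, whereas the SI difference of Fcgbp was -0.46 ± 0.10 and was not called. The interaction was called higher for 5 of the 7, beside 11.4% of all tested genes, with the larger decrease in LI for each except Tff3. Tff3 fell by 1.11 ± 0.17 in LI monolayers, whereas its SI difference was 0.55 ± 0.17 and was not called. For Fcgbp the interaction was 3.91 ± 0.15. Between tissues, 5 of the 7 were called lower in SI, beside 11.1% of all tested genes. The differences were -2.48 ± 0.18 for Zg16 and -2.07 ± 0.18 for Muc2 on the log2 scale.

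Cell surface mucins outside the 6 members gave 4 tested genes. Podxl, which codes for the sialomucin podocalyxin, rose from 42.6 ± 8.29 to 2100 ± 102 normalized counts in SI (log2 fold change 5.66 ± 0.14) and from 61.8 ± 13.4 to 1548 ± 58.4 in LI (4.69 ± 0.13). Parm1 rose in SI monolayers (1.88 ± 0.06) and was not called in LI monolayers (0.14 ± 0.06), with an interaction of 1.74 ± 0.09, and its difference between SI tissue and LI tissue was -4.05 ± 0.07. Cd164, an endosomal sialomucin, was not called in these comparisons. Muc16, a large ocular and airway mucin, failed the filter on low counts, with 11.9 ± 3.65 normalized counts in LI monolayers, 6.76 ± 2.95 in LI tissue, 0.593 ± 1.03 in SI monolayers and 0 in all SI tissue libraries.

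The enzymes that attach the O-linked sugars made up the next lists, to be read beside the shares of all tested genes, 9.71% called higher and 16.4% lower in SI, and 14.5% and 23.5% in LI monolayers. Of 17 tested genes that initiate O-glycans, the Galnt family, 2 were called higher and 1 lower in SI monolayers (median log2 fold change -0.22), and 3 higher and 6 lower in LI monolayers (median -0.39). Galnt3 rose by 1.73 ± 0.07 on the log2 scale in SI monolayers and by 2.36 ± 0.07 in LI monolayers. Galnt5 fell by 3.88 ± 0.24 in LI monolayers. Galnt14, at low counts, fell from 12.7 ± 2.02 to 3.35 ± 1.33 normalized counts in SI and rose from 2.73 ± 3.31 to 24.4 ± 7.43 in LI monolayers. Of 24 tested genes that extend, branch or cap the chains, 3 were called higher and 8 lower in SI monolayers (median -0.71), and 4 higher and 13 lower in LI monolayers (median -1.65). B3gnt6, the core 3 enzyme, fell by 5.23 ± 0.37 and B3gnt7 by 4.82 ± 0.23 in LI monolayers, while Gcnt1, which forms core 2 branches, rose by 2.09 ± 0.11 in SI and 1.91 ± 0.10 in LI monolayers. The sialyltransferase gene St6galnac6 fell by 2.72 ± 0.39 in SI and 3.94 ± 0.36 in LI monolayers. St6galnac3, which passed the filter through tissue libraries, fell from 25.3 ± 19.1 to 3.71 ± 1.97 normalized counts in SI. In tissue, 13 of the 24 were called lower and 4 higher in SI than in LI, beside 11.1% and 11.6% of all tested genes, and St6galnac6 (-5.79 ± 0.40) and St6galnac4 (-4.36 ± 0.16) differed most. All enzyme changes named here had adjusted p-values below 0.05.

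Proteases that shed surface proteins and binding partners of mucin tails completed the lists. Of 5 sheddase genes, Mep1a, the alpha subunit of the brush border protease meprin, was the one called in monolayers against tissue. That is 20% of the list, near the shares of all tested genes called lower, 16.4% in SI and 23.5% in LI. Mep1a fell from 6915 ± 561 to 422 ± 37.3 normalized counts in SI and from 12242 ± 1055 to 846 ± 36.5 in LI. Adam10 and Adam17 were not called in any comparison. Of 10 signalling and scaffold partners, 1 was called higher and 2 lower in SI monolayers, and 2 higher and 2 lower in LI monolayers, beside the shares of all tested genes given for the enzymes. Egfr, a receptor for EGF, rose by 1.93 ± 0.06 in SI and 2.71 ± 0.06 in LI monolayers. Slc9a3, the apical sodium proton exchanger, fell by 3.05 ± 0.18 and 6.65 ± 0.22. Pdzk1, an apical scaffold, fell from 5897 ± 1540 to 886 ± 60.7 normalized counts in SI monolayers and was higher in SI tissue than in LI tissue by 8.14 ± 0.42 on the log2 scale. Met, the partner of Muc20, rose by 1.34 ± 0.05 in LI monolayers, in which Muc20 fell, and Erbb2, the partner of Muc4, was not called in any comparison.

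**Figure D5:**
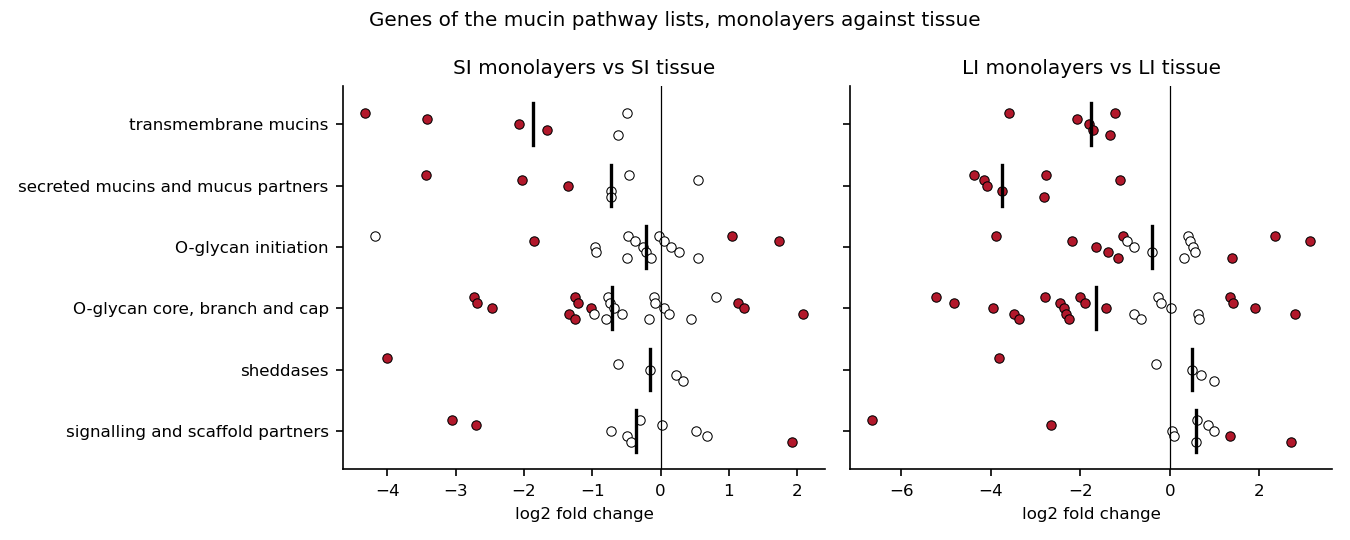
Log2 fold changes of single genes (points, filled when called) in monolayers against tissue for the transmembrane mucins and 5 lists of related genes, SI left and LI right, with list medians (bars). Transmembrane mucins lie below 0 in both panels, and the secreted mucin list moves from a median of -0.73 in SI to -3.74 in LI.

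Finally, the genes whose pattern was most like each member were taken by Pearson's r over the 12 libraries in log2 CPM, among genes with a mean of at least 10 CPM. These libraries share 4 groups, so that r mostly compares group levels, and it is a description only. Muc13 was closest to Nipsnap2 (r = 0.997), Klf4, which codes for a transcription factor of differentiated epithelium (r = 0.994), and Tmem171 (r = 0.994). Muc3 was closest to Sectm1b (r = 0.994), Mlxip (r = 0.989) and Hpgd, which codes for the enzyme that inactivates prostaglandins (r = 0.988). Muc3a was closest to Zfyve1 (r = 0.994), Psme2b (r = 0.993) and Slc51b, a subunit of the basolateral bile acid exporter (r = 0.993). For Muc4 the nearest genes were Helz2 (r = 0.989), H2-T23 (r = 0.988) and Muc2 (r = 0.979). For Muc1 they were Insl5, a hormone gene of colonic enteroendocrine cells, Itih5 and Dapk2, with r of 0.990, 0.990 and 0.989. Muc20, measured from few counts, had its highest r with Cybc1 (0.966), Psd3 (0.961) and Ctps2 (0.958). No member was among the 3 nearest genes of another.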

How the data were processed

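RNA of 12 mouse samples was analysed in 4 groups of 3, assigned from the sample labels. The authors aligned paired-end reads to GRCm38 with STAR 2.7.9a and counted them on GENCODE genes with featureCounts 2.0.2. The deposited counts are whole numbers per gene without normalization. The deposited normalized signal holds those counts after division by a DESeq2 size factor for each library (DESeq2 version given as 3.13). All columns were mapped to a sample. Of 55487 genes, 55141 were named from a GENCODE annotation of GRCm38 and 346 were not, and that annotation is of an earlier release than the one the authors used. The members and the gene lists were chosen with earlier results of these data known.

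Counts were tested with edgeR 4.0.16 in R 4.3.3: filterByExpr by group (19581 genes), TMM scaling, a robust quasi-likelihood fit of the 4 group means on all 12 libraries, 5 contrasts and Benjamini-Hochberg adjustment over all tested genes. A call needed an adjusted p under 0.05 and a log2 fold change of at least 1 in size. SE values are the fold change divided by the square root of its F statistic. Levels are means ± SD of the deposited normalized signal, divided by exon length where genes are compared. The test was checked on simulated counts in which few genes were changed, evenly in both directions and in SI monolayers alone. That check does not cover changes as broad or as uneven as those found here. By rule, genes named besides the members were called genes of a list, the 2 with the largest fold changes of a described comparison first, and the 3 genes with the highest Pearson r to each member (log2 CPM, prior count of 2). Erbb2, Adam10, Adam17, Cd164, Muc16, Muc5ac, Muc15, Cd68, Cd74, H2-Aa, Gm3054 and Gm15657 were named outside that rule, after their values were seen. Library totals of 59016196 to 76216530 counts set the precision. Alternatives were DESeq2 1.42.0, upper quartile scaling, halved counts, removal of mitochondrial genes, each library left out, a fit blocked by replicate number, a fit of 2 groups alone, calls by adjusted p alone, and either no filter or at least 10 counts in all libraries. Adding the counts of Gm3054 to Muc3 was chosen after seeing the data. No columns were left unused.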

Additional observations from a re-analysis of the deposited data

Results flagged for a closer look

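Of the results for the transmembrane mucins, the interaction of Muc3 was marked for a closer look, because the effect of culture on this gene differed between the 2 regions in a test of that difference itself (log2 interaction -1.34 ± 0.31, adjusted p = 0.00663 in edgeR). Muc3 was 10.7-fold lower in SI monolayers than in SI tissue and 4.23-fold lower in LI monolayers than in LI tissue. All 3 monolayer libraries lay below all 3 tissue libraries in each region. Groups without overlap, in either direction, were found for 66.4% of tested genes in SI and 73.0% in LI. The interaction was called lower for 8.51% and higher for 11.4% of tested genes, beside 1 of the 6 members. Leaving out single libraries gave interactions from -1.55 to -1.04, with adjusted p-values from 0.000526 to 0.0226. Single libraries far from the rest of their group were not tested for, since each group holds 3 libraries.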

How the results depend on the processing

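Of 623 fold changes of the members under the alternatives, 605 kept their direction and their side of the threshold, 9 became called, 6 lost their call and 3 changed sign, and the cause was not tested unless named. Of 104 counts of called members, 99 stayed within 1.5 times. DESeq2 called the Muc1 interaction (1.21, adjusted p = 0.0116), so that 2 members were called there. Without a minimum fold change, Muc13 was called in SI monolayers (-0.62), Muc3 (-0.88), Muc3a (0.58) and Muc13 (-0.73) between tissues, where 6 members were then called, and Muc13 in the interaction (0.60), where 2 were. With mitochondrial genes removed, Muc4 between monolayers came to -0.999, just under the threshold. Muc20 was not tested with a minimum of 10 counts in every library, nor with only the SI groups, so that 3 members were called in SI under each.

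Leaving out each library in turn gave these ranges: Muc1 in SI monolayers -0.78 to 0.25 (sign changed without SI tissue replicate 1), Muc1 between tissues -6.90 to -5.87 (lowest without SI tissue replicate 1), Muc20 in LI monolayers -1.59 to -1.18 (call lost without LI tissue replicate 2), Muc3 between tissues -1.03 to -0.67 (called without SI tissue replicate 1), Muc4 between tissues -1.33 to -0.98 (call lost without LI tissue replicate 2), Muc4 between monolayers -1.12 to -0.85 (call lost without replicate 1 or 3 of SI or replicate 1 of LI monolayers), Muc3a between monolayers -0.35 to 0.090 (sign changed without LI monolayers replicate 1), the Muc1 interaction 0.93 to 1.96 (called without SI tissue replicate 1 or LI tissue replicate 2) and the Muc4 interaction -0.042 to 0.40 (sign changed without LI tissue replicate 2). The number of members called ranged from 4 to 4 in SI, 5 to 6 in LI, 2 to 4 between tissues, 3 to 4 between monolayers and 1 to 2 in the interaction. Where 2 libraries were left in a group, the spread was shared with the other groups.

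Same-numbered replicates showed no shared deviation, with correlations from -0.052 to 0.056 and 0 of 3 pairs over 0.1 for each pair of groups. With 3 libraries per group, this measure cannot exclude that samples share animals. With the replicate number as a block, 4 members were called in SI, 6 in LI, 3 between tissues, 4 between monolayers and 1 in the interaction, as without it. Over all genes, 5110 were called in SI, 7442 in LI, 4446 between tissues, 4159 between monolayers and 3909 in the interaction. These counts were 11674, 13445, 10558, 10145 and 9069 without a minimum fold change, and 3140, 4797, 2606, 2442 and 2822 with at least 10 counts in every library, where fewer genes were tested. Upper quartile scaling moved the median of all genes in LI monolayers from -0.05 to -0.17, and removal of mitochondrial genes moved it to -0.12. Spearman's rho named 0 of the 3 genes that Pearson's r named for each member. Depth limits Muc20 and, in SI, Muc1, which rest on 3 to 30 raw counts per SI library.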

Other observations

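Gm15657, the gene annotated antisense to the 5' end of Muc13, had 162 ± 4.02 normalized counts (SD, n = 3) in LI tissue and 37.9 ± 11.4 in LI monolayers. Its SI values were 65.9 ± 15.2 in tissue and 62.3 ± 11.7 after culture. It fell in LI monolayers (log2 fold change -2.05 ± 0.28 (SE), adjusted p = 5.47e-06 in edgeR), as Muc13 did, and had -0.04 ± 0.27 in SI monolayers. Exons of Gm15657 share 184 bases, 12.1% of their length, with those of the far more abundant Muc13. No source states whether reads were counted by strand, so the part of Muc13 reads in the Gm15657 values is not known. Of the mucin genes that failed the filter on low counts, Muc5ac was at 0 in all 12 libraries. Muc15 was at 0 in the other groups and averaged 0.765 ± 1.33 normalized counts in LI monolayers. That mean is smaller than its SD and under the limit set by 3 counts, so it is not read as a difference between groups.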
